A study of Mus musculus with 11 samples.

Results

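NF-kB is a family of transcription factors that switches on genes of inflammation, immunity and cell survival. The set described here held the 5 genes of its subunits (Nfkb1, Nfkb2, Rel, Rela and Relb), 3 genes whose products regulate or restrain it (Nfkbia, Tnfaip3 and Bcl3) and 2 cytokine genes known as its targets (Tnf and Il6). They were taken by gene symbol, and all 10 were found among the 24411 genes measured. In neuroblastomas of Th-MYCN mice, all 10 transcripts rose 16 h after CBL0137 and panobinostat were given together. The rises ran from 1.50 times vehicle for Rela to 15.4 times for Il6, in a comparison where 35.9% of all tested genes were called higher. Il6, Tnf and Bcl3 had vehicle means below 1 TPM and reached the level for testing only with treated libraries counted. Summed markers of macrophages, endothelium and fibroblasts were higher in the same tumours, macrophage markers at 6900 to 10400 TPM against 817 to 1010 TPM in vehicle. Rela was the member that differed least from vehicle in this comparison, and its call was lost after quantile normalization.

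The mice were homozygous for the Th-MYCN transgene, in which the tyrosine hydroxylase promoter drives MYCN and spontaneous neuroblastomas of the sympathetic nervous system form. All groups carried this transgene, and tumours of about 5 mm were collected 16 h after 1 dose. Vehicle was given intraperitoneally to 3 mice. The CBL0137 group (n = 3) received 40 mg/kg of the drug by the intravenous route. The panobinostat group (n = 2, numbered 1 and 3) received 5 mg/kg by the intraperitoneal route, and the combination group (n = 3) received both drugs. Vehicle and CBL0137 therefore differed in route as well as in drug, as did panobinostat and CBL0137. If CBL0137 was given intravenously in the combination too, that group also differed in route from vehicle and from panobinostat. Panobinostat replicate 2 was not analysed here. CBL0137 is a curaxin, a DNA-binding compound known for trapping the histone chaperone FACT in chromatin, activating p53 and restraining NF-kB. Panobinostat is a broad histone deacetylase inhibitor. Each library is 1 tumour, and its values are TPM, transcript abundances corrected for transcript length and scaled to a total of 1000000. TPM carry no read counts, so the depth of the libraries is unknown.

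NF-kB works as pairs of subunits. Nfkb1 encodes the precursor of p50 and Nfkb2 the precursor of p52, subunits that bind DNA but lack an activation domain of their own. Rela (p65), Rel (c-Rel) and Relb carry activation domains. Inhibitory IkB proteins such as the product of Nfkbia hold the pairs in the cytoplasm until kinases mark them for destruction, and the freed pairs enter the nucleus. Part of the response is negative feedback, since Nfkbia and Tnfaip3 are themselves targets. Much of this control acts on protein, so transcript levels do not measure NF-kB activity. In tumours, macrophages, neutrophils, endothelial cells and fibroblasts express these genes as well as the cancer cells.

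The members lie on 8 mouse chromosomes (mm10, GENCODE M21). The subunit genes are Nfkb1 at chr3:135584655-135691547, Rel at chr11:23736847-23770970, Rela at chr19:5637483-5648130, Nfkb2 at chr19:46304320-46312385 and Relb at chr7:19606217-19629438. Bcl3 lies near Relb at chr7:19808462-19822770, and Nfkbia and Tnfaip3 lie at chr12:55489410-55492647 and chr10:19000910-19015657. The cytokine genes are Il6 at chr5:30013114-30019981 and Tnf at chr17:35199381-35202007. Promoter sequence from RefSeq (GRCm38.p6) was matched for 8 members with 11 start sites, and not for Nfkb1 and Relb. The 250 bases before the start are printed for 4 genes that the results turn on: Nfkbia, the most abundant member, Nfkb2, the subunit that rose furthest, and both cytokines. They run 5′ to 3′ on the gene's own strand, and capitals mark matches of GGGNNNTTCC on either strand, a shortened form of the kB site.
Nfkbia (chr12:55492648-55492897, minus strand): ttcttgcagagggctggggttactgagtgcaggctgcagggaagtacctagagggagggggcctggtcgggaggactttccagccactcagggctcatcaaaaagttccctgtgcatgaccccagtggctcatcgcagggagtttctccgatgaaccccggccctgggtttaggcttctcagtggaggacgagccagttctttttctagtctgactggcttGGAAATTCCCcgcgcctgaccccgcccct
Nfkb2 (chr19:46304487-46304736, plus strand): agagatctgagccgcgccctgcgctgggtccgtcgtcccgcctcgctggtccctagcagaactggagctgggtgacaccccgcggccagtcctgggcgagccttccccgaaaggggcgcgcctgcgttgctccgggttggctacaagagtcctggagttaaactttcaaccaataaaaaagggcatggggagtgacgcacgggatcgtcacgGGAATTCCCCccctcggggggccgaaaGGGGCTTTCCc
Il6 (chr5:30012864-30013113, plus strand): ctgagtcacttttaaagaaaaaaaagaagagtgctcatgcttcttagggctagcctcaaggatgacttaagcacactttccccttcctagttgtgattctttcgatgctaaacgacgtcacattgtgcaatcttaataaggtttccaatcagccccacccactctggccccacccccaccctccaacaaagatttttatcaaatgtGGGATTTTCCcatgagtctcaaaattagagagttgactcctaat
Tnf (chr17:35202008-35202257, minus strand): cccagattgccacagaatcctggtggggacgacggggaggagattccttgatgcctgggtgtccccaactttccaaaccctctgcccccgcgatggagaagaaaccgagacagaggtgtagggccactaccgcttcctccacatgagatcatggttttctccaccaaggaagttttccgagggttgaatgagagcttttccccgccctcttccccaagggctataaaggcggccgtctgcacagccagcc
In Il6, GGGATTTTCC ended 35 bases before the start. Nfkbia carried GGGAATTTCC on the opposite strand, 29 to 20 bases before the start. The printed window of Nfkb2, 1 of its 3, lay inside the GENCODE span given above, because its RefSeq start is downstream of the first base of that span. This window carried 2 matches, GGGGAATTCC on the opposite strand and GGGGCTTTCC, both within 38 bases of the RefSeq start. The other 2 windows of Nfkb2, before starts further downstream, held 1 match each. The pattern was found in 8 of the 11 member windows, those of Il6, Tnfaip3, Rel, Nfkbia and Nfkb2, and in 4.65% of all 32851 windows of this length. The looser GGGNNNNNCC, which contains the first pattern, was found in 11 of 11 member windows and in 45.8% of all windows. Both patterns were chosen after these sequences had been seen, and a match is a description of letters, not a binding site.

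The tumours differed between groups in markers of the cells around the cancer cells. The summed level of 12 macrophage and monocyte markers, led by Lyz2 and C1qc, was 817 to 1010 TPM in vehicle, 1730 to 3510 TPM after CBL0137, 4310 to 5390 TPM after panobinostat and 6900 to 10400 TPM after the combination. Of these markers 8, 12 and 12 were called higher than vehicle after CBL0137, panobinostat and the combination. The 6 neutrophil markers, led by S100a8 and S100a9, summed to 3.08 to 18.6, 32.6 to 75.9, 188 to 360 and 446 to 619 TPM in the same order of groups. The 6 endothelial markers (Pecam1 and Cdh5 lead) summed to 22.8 to 42.8, 52.1 to 143, 150 to 173 and 282 to 525 TPM. The 7 fibroblast markers (Col1a2 and Col3a1 lead) summed to 183 to 311, 393 to 1060, 2150 to 2360 and 2670 to 4100 TPM. The 8 neuroblast markers, with Th and Ddc the most abundant, were all at 1 TPM or more in every library and summed to 894 to 1090, 1260 to 1390, 746 to 964 and 512 to 832 TPM. None of the macrophage, neutrophil, endothelial, fibroblast or neuroblast markers was at 0 in all libraries of a group. The part of these cells in the changes of the NF-kB genes was not tested. In bulk tumour RNA, more cells of a type and more RNA per cell cannot be told apart.

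**Figure D1:**
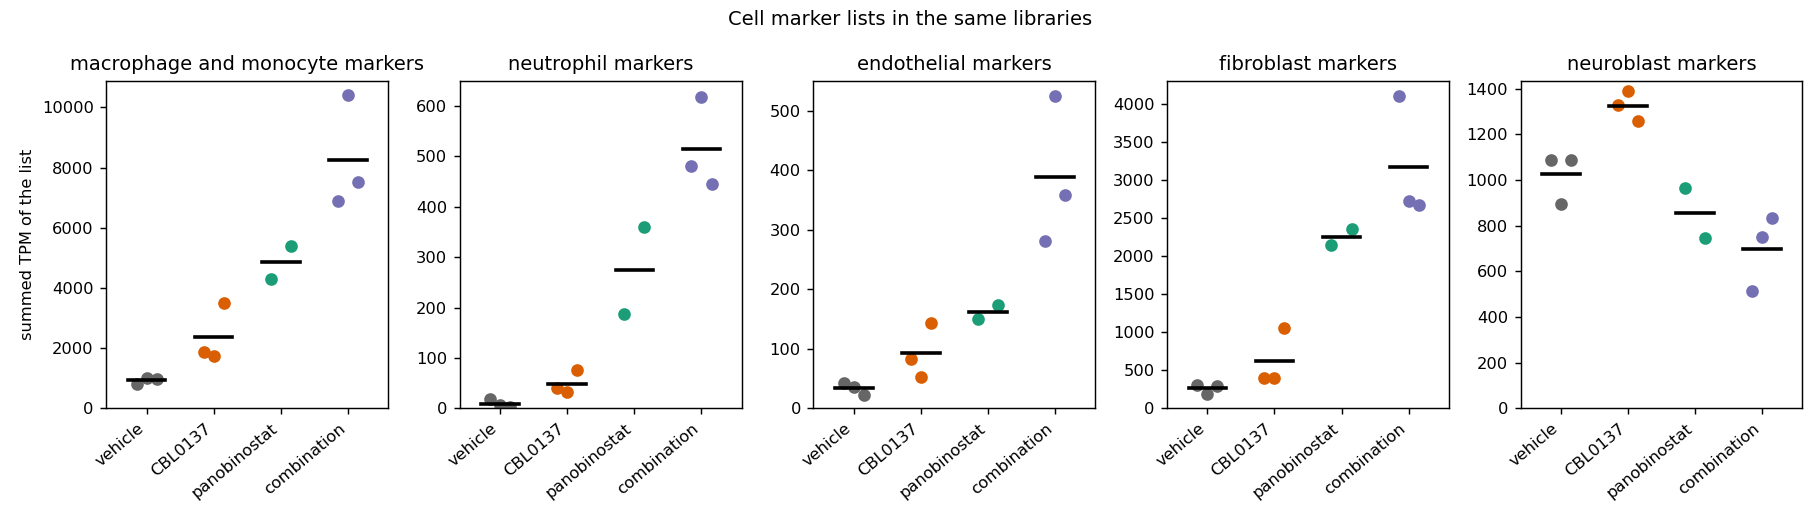
Summed TPM of 5 marker lists, 1 panel each with its own linear axis from 0, 1 point per tumour library and a line at the group mean. The macrophage and monocyte sums lie between 817 and 1010 TPM in vehicle and between 6900 and 10400 TPM in the combination.

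Single libraries also stood apart. Adrenal cortex markers (Star and Hsd3b1 lead) reached 4600 TPM in combination replicate 2 against 25.1 TPM at most elsewhere, and skeletal muscle markers (Acta1 and Mylpf lead) 8050 TPM in panobinostat replicate 3, 616 TPM in combination replicate 1 and 520 TPM in CBL0137 replicate 2, against 57.4 TPM at most elsewhere. Kidney markers (Kap and Slc34a1 lead) reached 411 TPM in vehicle replicate 2. CBL0137 replicate 3 carried 156 TPM of B cell markers (Cd79b and Ms4a1 lead), where the other groups reached 64.4 TPM at most, and the highest T cell sum of its group (55.1 TPM, with Cd3g and Cd4 leading). Vehicle replicate 2, CBL0137 replicate 3, panobinostat replicate 3 and combination replicate 2 were left out together in an alternative chosen after seeing the data, and its counts stand beside the results. The libraries with 616 and 520 TPM of muscle markers stayed in that fit, so it is not free of other tissue.

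Rela, the most abundant subunit in vehicle, held 12.9, 12.5 and 12.4 TPM in the 3 vehicle tumours. After CBL0137 it measured 9.76, 9.13 and 14.3 TPM, and after panobinostat 12.9 and 13.1 TPM. The combination gave 17.8, 20.6 and 18.2 TPM. The 3 combination tumours lay above all 8 others, while the CBL0137 libraries fell on both sides of vehicle. On the log2(TPM + 1) scale, which understates changes of low genes, the difference between combination and vehicle was 0.55 ± 0.16 (SE, limma adjusted p = 0.0105). It was -0.20 ± 0.16 for CBL0137 (adjusted p = 0.475, limma) and 0.05 ± 0.18 for panobinostat (adjusted p = 0.855). The call for the combination was lost after quantile normalization (0.26, limma adjusted p = 0.0889).

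Nfkb1, the gene of p50 and its precursor p105, measured 11.1, 9.50 and 8.65 TPM in vehicle. CBL0137 tumours held 12.1, 11.7 and 23.0 TPM and panobinostat tumours 17.5 and 18.1 TPM. Combination tumours held 36.6, 37.1 and 27.3 TPM. No treated tumour fell inside the vehicle range. Nfkb1 rose by 0.81 ± 0.26 after panobinostat (limma adjusted p = 0.0318) and by 1.68 ± 0.24 after the combination (adjusted p = 0.00015), and the CBL0137 difference of 0.56 ± 0.24 was not called (adjusted p = 0.179).

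Nfkb2, the precursor of p52 in the non-canonical pathway, was low in vehicle with 2.10, 1.34 and 0.940 TPM. It measured 4.74, 3.09 and 11.04 TPM after CBL0137 and 6.91 and 9.58 TPM after panobinostat. The combination brought it to 18.5, 17.6 and 19.3 TPM, a mean 12.6 times that of vehicle. The combination values were tight, whereas those of CBL0137 spanned a wide range with replicate 3 on top. The log2 changes were 1.44 ± 0.35 for CBL0137 (limma adjusted p = 0.04), 1.92 ± 0.39 for panobinostat (adjusted p = 0.00384) and 3.01 ± 0.35 for the combination (adjusted p = 4.74e-05).

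Relb, the usual partner of p52, measured 1.72, 2.04 and 1.83 TPM in vehicle tumours, against 12.6, 13.1 and 11.2 TPM in combination tumours. CBL0137 gave 3.28, 2.73 and 7.93 TPM and panobinostat 4.58 and 7.12 TPM. Every treated tumour exceeded every vehicle tumour. The change was 2.21 ± 0.30 after the combination (limma adjusted p = 0.000119) and 1.23 ± 0.33 after panobinostat (adjusted p = 0.0146). For CBL0137 the difference of 0.87 ± 0.30 was not called (adjusted p = 0.111).

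Rel, which encodes c-Rel and is known from lymphoid and myeloid cells, held 1.90, 1.21 and 1.17 TPM in vehicle tumours, against 11.2, 9.65 and 6.30 TPM in combination tumours. It measured 2.38, 2.06 and 5.52 TPM after CBL0137 and 3.90 and 3.86 TPM after panobinostat. CBL0137 replicate 3 came close to the lowest combination tumour. Rel rose by 1.02 ± 0.34 after panobinostat (limma adjusted p = 0.0344) and by 2.03 ± 0.30 after the combination (adjusted p = 0.000219), with 0.76 ± 0.30 for CBL0137 (adjusted p = 0.161).

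Because the subunits rose by different amounts, their proportions differed between groups. The summed level of the 5 subunits was 27.1 ± 2.40 TPM in vehicle (SD, n = 3), 40.9 ± 18.1 TPM in CBL0137 tumours (n = 3), 48.7 ± 4.18 TPM in panobinostat tumours (n = 2) and 92.3 ± 8.74 TPM in combination tumours (n = 3). Rela made up 43.3 to 49.5% of that sum in vehicle, 23.1 to 31.9% after CBL0137, 25.3 to 28.2% after panobinostat and 18.4 to 22.2% after the combination. The vehicle range did not overlap that of any treated group. Nfkb2 went the other way, from a mean of 5.30% in vehicle to 14.5, 16.8 and 20.2% in the same order. Relb stood at 6.94, 10.9, 11.9 and 13.3%, and Rel at 5.22, 7.84, 7.99 and 9.70%. The share of Nfkb1 stayed between 35.9 and 38.4% in the group means. These shares divide 2 values of the same library, so scaling a library by 1 factor leaves them as they are.

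**Figure D2:**
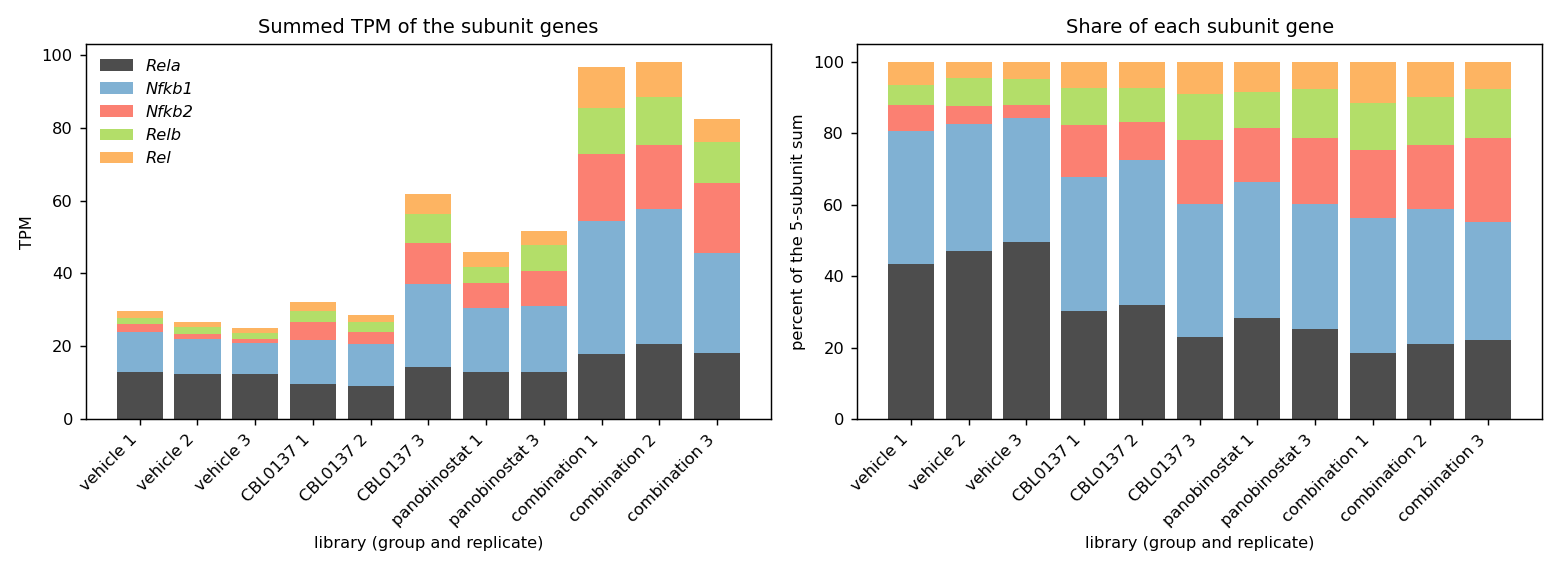
Stacked bars for each of the 11 libraries, with the TPM of the 5 subunit genes on the left and their percent of the 5-subunit sum on the right. Rela (dark grey) takes 43.3 to 49.5% of the sum in vehicle and 18.4 to 22.2% in the combination.

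Nfkbia encodes IkB alpha, the inhibitor that is rebuilt soon after NF-kB acts, and it was the most abundant member in all 4 groups. It measured 17.4, 18.2 and 17.4 TPM in vehicle. CBL0137 tumours held 30.5, 23.1 and 43.9 TPM and panobinostat tumours 33.5 and 39.2 TPM. The combination gave 58.4, 62.7 and 61.8 TPM, and no combination tumour overlapped any other. Nfkbia rose by 0.80 ± 0.19 after CBL0137 (limma adjusted p = 0.0361), by 1.00 ± 0.21 after panobinostat (adjusted p = 0.00448) and by 1.73 ± 0.19 after the combination (adjusted p = 3.28e-05). Relative to Rela, the subunit it binds best, Nfkbia went from 1.41 ± 0.0513 TPM per TPM of Rela in vehicle (SD, n = 3) to 2.91 ± 0.334 in CBL0137 tumours (n = 3), 2.80 ± 0.294 in panobinostat tumours (n = 2) and 3.24 ± 0.172 in combination tumours (n = 3).

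Tnfaip3 encodes A20, a ubiquitin-editing enzyme that ends signalling from TNF and Toll-like receptors. It was at 2.39, 1.57 and 1.11 TPM in vehicle and at 18.0, 16.4 and 13.5 TPM after the combination. CBL0137 tumours held 4.95, 2.91 and 11.1 TPM, panobinostat tumours 6.18 and 6.34 TPM. The 2 panobinostat values were alike and fell within the CBL0137 range. Tnfaip3 rose by 1.46 ± 0.40 after panobinostat (limma adjusted p = 0.0151) and by 2.67 ± 0.36 after the combination (adjusted p = 0.00011), and its CBL0137 difference of 1.31 ± 0.36 missed the threshold (adjusted p = 0.0585).

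Bcl3, an atypical IkB protein that acts in the nucleus with p50 and p52, was lower, at 1.05, 0.720 and 0.270 TPM in vehicle. It measured 1.80, 1.74 and 4.19 TPM after CBL0137 and 5.47 and 3.65 TPM after panobinostat. Combination tumours held 10.8, 8.06 and 11.9 TPM, a mean 15.1 times that of vehicle. Each treated group lay wholly above vehicle. The change was 1.73 ± 0.33 after panobinostat (limma adjusted p = 0.003) and 2.76 ± 0.30 after the combination (adjusted p = 3.26e-05). For CBL0137 it was 1.05 ± 0.30 (adjusted p = 0.0666).

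Of the cytokine genes, Il6 was called higher than vehicle after each drug alone and Tnf after CBL0137 but not panobinostat, a difference between the 2 genes that was not tested. Tnf, which encodes a secreted activator of NF-kB, measured 1.71, 0.470 and 0.380 TPM in the vehicle tumours. The panobinostat tumours held 0.920 and 2.19 TPM. It measured 4.97, 2.59 and 8.46 TPM after CBL0137 and 12.1, 10.99 and 8.60 TPM after the combination. Panobinostat tumours overlapped vehicle, whereas all CBL0137 and combination tumours exceeded both. Tnf rose by 1.73 ± 0.38 after CBL0137 (limma adjusted p = 0.0287) and by 2.70 ± 0.38 after the combination (adjusted p = 0.000162), with 0.49 ± 0.43 after panobinostat (adjusted p = 0.387). The direct difference between CBL0137 and panobinostat was 1.25 ± 0.43, with a 95% interval of 0.29 to 2.20, and was not called after adjustment (limma adjusted p = 0.0672). Of the 12 macrophage and monocyte markers, 9 were called lower after CBL0137 than after panobinostat, 0 higher and 3 were not called. Over all tested genes 12.1% were called lower. Their sum, most of it Lyz2, was 4310 to 5390 TPM after panobinostat and 1730 to 3510 TPM after CBL0137. Within the list the monocyte marker Ly6c2 was at 39.1 to 90.6 TPM after CBL0137 and 16.0 to 19.9 TPM after panobinostat, and Fcgr1 overlapped, at 11.8 to 28.5 and 14.96 to 20.5 TPM. Neither Ly6c2 nor Fcgr1 was called between these 2 groups, and both were named after their values were seen. The part of these cells in the level of Tnf was not tested.

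Il6, which encodes an inflammatory cytokine made by macrophages, fibroblasts and endothelium among others, measured 1.04, 0.110 and 0.730 TPM in vehicle. It stood at 2.38, 3.06 and 4.62 TPM after CBL0137 and at 2.80 and 4.79 TPM after panobinostat. The combination gave 10.5, 8.20 and 10.3 TPM. The single-drug groups overlapped each other, and neither overlapped vehicle or the combination. Il6 rose by 1.43 ± 0.29 after CBL0137 (limma adjusted p = 0.0186), by 1.57 ± 0.32 after panobinostat (adjusted p = 0.00384) and by 2.75 ± 0.29 after the combination (adjusted p = 2.66e-05). Between the single drugs the difference was -0.14 with a 95% interval of -0.85 to 0.57. Per TPM of Il6 there were 1.59 ± 0.655 TPM of Tnf in CBL0137 tumours (SD, n = 3), 0.393 ± 0.0910 in panobinostat tumours (n = 2) and 1.11 ± 0.255 in combination tumours (n = 3), while vehicle ranged from 0.521 to 4.27.

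**Figure D3:**
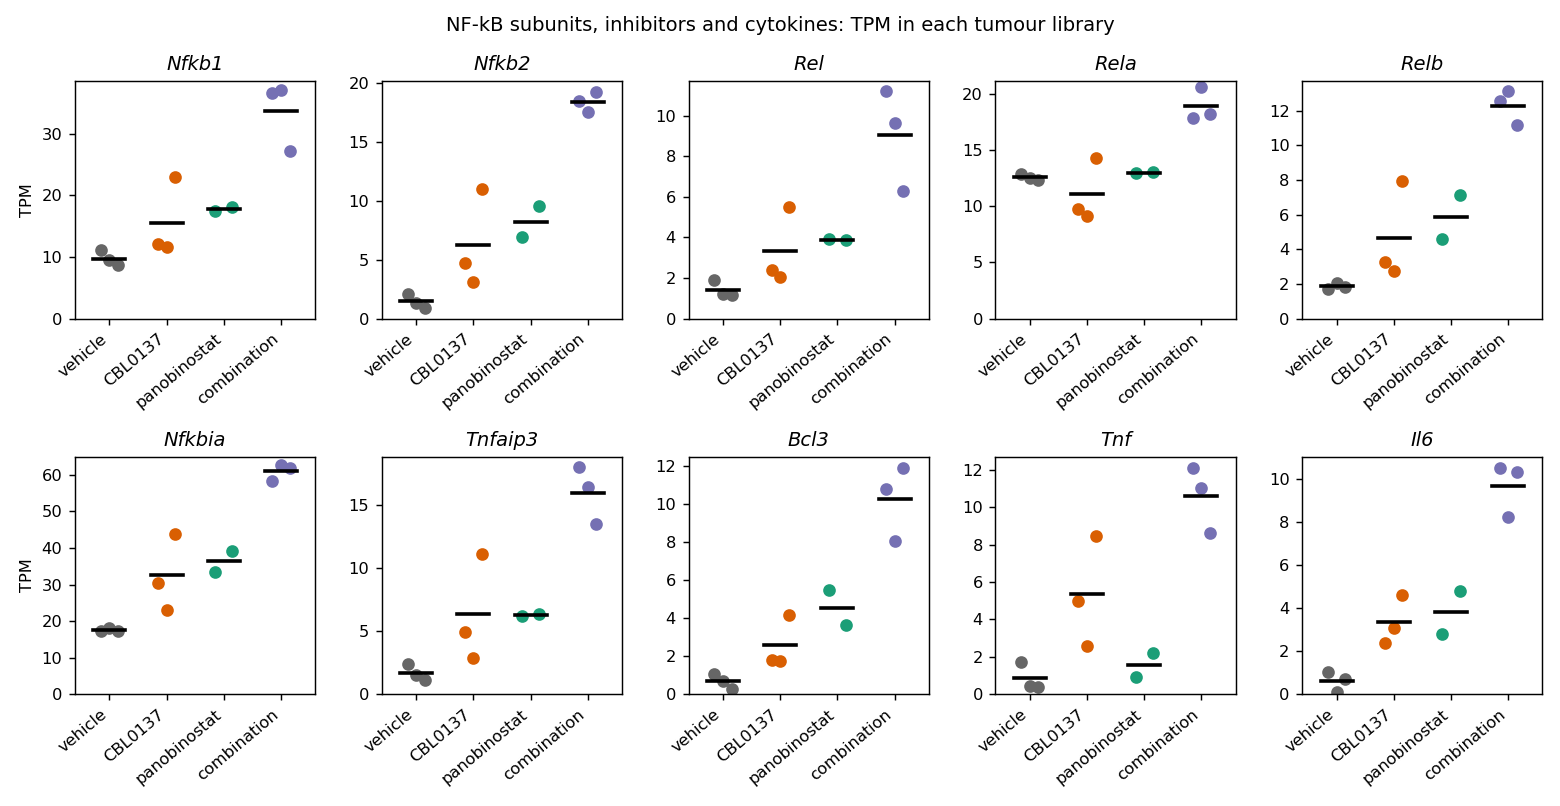
TPM of each of the 10 NF-kB genes, 1 panel per gene with its own linear axis from 0, 1 point per tumour library and a line at the group mean. In every gene the 3 combination tumours lie above the other 8 tumours, and the highest CBL0137 point is replicate 3.

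Levels in TPM could be ordered within each group. In vehicle the order was Nfkbia (17.7 TPM), Rela (12.6 TPM) and Nfkb1 (9.75 TPM), whose ranges did not overlap. The other 7 followed from Relb at 1.86 TPM to Il6 at 0.627 TPM, and each overlapped its neighbour. After the combination Nfkbia (60.9 TPM) was followed by Nfkb1 (33.7 TPM), again without overlap. Rela (18.9 TPM), Nfkb2 (18.4 TPM) and Tnfaip3 (15.9 TPM) overlapped as neighbours, and Relb (12.3 TPM), Tnf (10.6 TPM), Bcl3 (10.2 TPM), Il6 (9.66 TPM) and Rel (9.05 TPM) formed the lower end, also overlapping. Nfkb1 therefore stood below Rela in vehicle and above it in the combination. After CBL0137 only the step from Nfkbia (32.5 TPM) to Nfkb1 (15.6 TPM) was free of overlap. After panobinostat Tnf was the lowest, at 1.55 ± 0.898 TPM (SD, n = 2), below Il6 at 3.79 ± 1.41 TPM without overlap.

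Against vehicle, CBL0137 alone raised 4 of the 10 members, Nfkb2, Nfkbia, Tnf and Il6, and lowered 0. Tnf and Il6 passed the filter of 1 TPM in 2 libraries only with treated libraries. Over all tested genes 4.99% were called higher and 1.13% lower. The median log2 difference of the members was 0.96, against -0.01 over all genes, and 9 of the 10 (all but Rela) lay wholly above vehicle, as did 18.6% of all genes. The number called varied with single tumours left out, and so did the share of all genes called higher. That share was 3.34% without CBL0137 replicate 3 and 5.15% without CBL0137 replicate 1. Without vehicle replicate 1, 2 and 3 it was 2.82, 2.48 and 2.01%. CBL0137 replicate 3 was the highest of its group in 10 of 10 members, and it also had the highest macrophage marker sum of its group (3510 TPM against 1730 and 1870 TPM). Without it 0 of 10 members were called and the members' median was 0.66. The 4 had changes of 1.00 for Nfkb2 (limma adjusted p = 0.0668), 0.56 for Nfkbia (0.0573), 1.39 for Tnf (0.0944) and 1.23 for Il6 (0.0637). The count was also 0 without vehicle replicate 2 (median 1.00), without vehicle replicate 3 (0.86) and without the 4 libraries (0.68). It was 1 without CBL0137 replicate 1 (1.10) and 2 without vehicle replicate 1 (1.05) or combination replicate 1. Leaving out a panobinostat or combination library cannot change the median, which stayed at 0.96. With array weights 9 were called higher and Rela was called lower (-0.32, limma adjusted p = 0.0208), with 17% of all genes higher and 13.3% lower.

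Panobinostat alone raised 8 of 10 members, all but Rela and Tnf, and lowered 0. Bcl3 and Il6, both among the 8, passed the filter only with treated libraries. Over all tested genes 25.5% were called higher and 16.9% lower, a split that quantile normalization moved to 15.8 and 25.6%. The members' median was 1.13, against 0.10 over all genes. Without overlap above vehicle lay 9 of the 10, all but Tnf, and 37.1% of all genes. Without the 4 libraries that stood apart 6 of 10 were called (median 0.99). The count was 5 without vehicle replicate 3 (median 1.11), where 19.5% of all genes were called higher. Without panobinostat replicate 1 or 3 the members' median was 1.29 or 0.995. Quantile normalization lowered the median of all genes by 0.28 in this comparison and left 3 of 10 members called. Relative to the median of all genes, the members' median was 1.03 without it and 0.727 with it.

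The combination raised 10 of 10 members over vehicle, in a comparison where 35.9% of all genes were called higher and 30.1% lower (26.9 and 43.1% after quantile normalization). Bcl3, Tnf and Il6 passed the filter only with treated libraries, and the 7 members that passed through vehicle alone were all called. The members' median was 2.44 and that of all genes 0.08. All 10 lay above vehicle without overlap, as did 38.4% of all genes. All 3 combination tumours exceeded all 8 others in 10 of 10 members, which held for 19.4% of all genes. Without the 4 libraries that stood apart 10 of 10 were still called, where 32.2% of all genes were called higher. That fit kept the libraries with 616 and 520 TPM of muscle markers. The 3 comparisons against vehicle share the same vehicle tumours and are not independent.

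Adding panobinostat to CBL0137 raised 9 of 10 members over CBL0137 alone, with 33.2% of all genes called higher and 23.7% lower (25.1 and 34.6% after quantile normalization). Bcl3 and Il6, both among the 9, passed the filter only with treated libraries. The differences of these 9 ran from 0.74 ± 0.16 for Rela (limma adjusted p = 0.00276) to 1.70 for Bcl3 (adjusted p = 0.00108). Tnf differed by 0.96 ± 0.38 and missed the threshold (adjusted p = 0.0535). Tnf levels in the 3 combination tumours were nevertheless all above those of the 3 CBL0137 tumours, 8.60 TPM being the lowest of the former and 8.46 TPM the highest of the latter. The same held for all 10 members and for 36.9% of all genes.

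Adding CBL0137 to panobinostat raised 2 of 10 members over panobinostat alone, Tnf by 2.21 ± 0.43 (limma adjusted p = 0.0172) and Il6 by 1.18 ± 0.32 (adjusted p = 0.0451). Both passed the filter only with treated libraries. In this comparison 6.24% of all genes were called higher and 4.3% lower (9.69 and 11.8% after quantile normalization). The other 8 had differences between 0.50 for Rela and 1.21 for Tnfaip3 and adjusted p from 0.0516 for Nfkbia to 0.0875 for Nfkb2. All 10 lay above panobinostat without overlap, as did 25.1% of all genes. The count varied with the libraries in the fit. Without combination replicate 1 or 2 it was 0, with 2.64 and 2.26% of all genes called higher. The members' medians were then 0.971 and 1.035, against 1.02 over all libraries. Without panobinostat replicate 1 or 3 the medians were 0.88 and 1.12. Leaving out a vehicle or CBL0137 library cannot change these differences, only the shared spread, the genes tested and the adjustment. The count was 10 without CBL0137 replicate 3, where 11% of all genes were called higher. It was 1 without vehicle replicate 1 or 3 or CBL0137 replicate 1, with 4.2, 3.2 and 4.42% called higher.

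**Figure D4:**
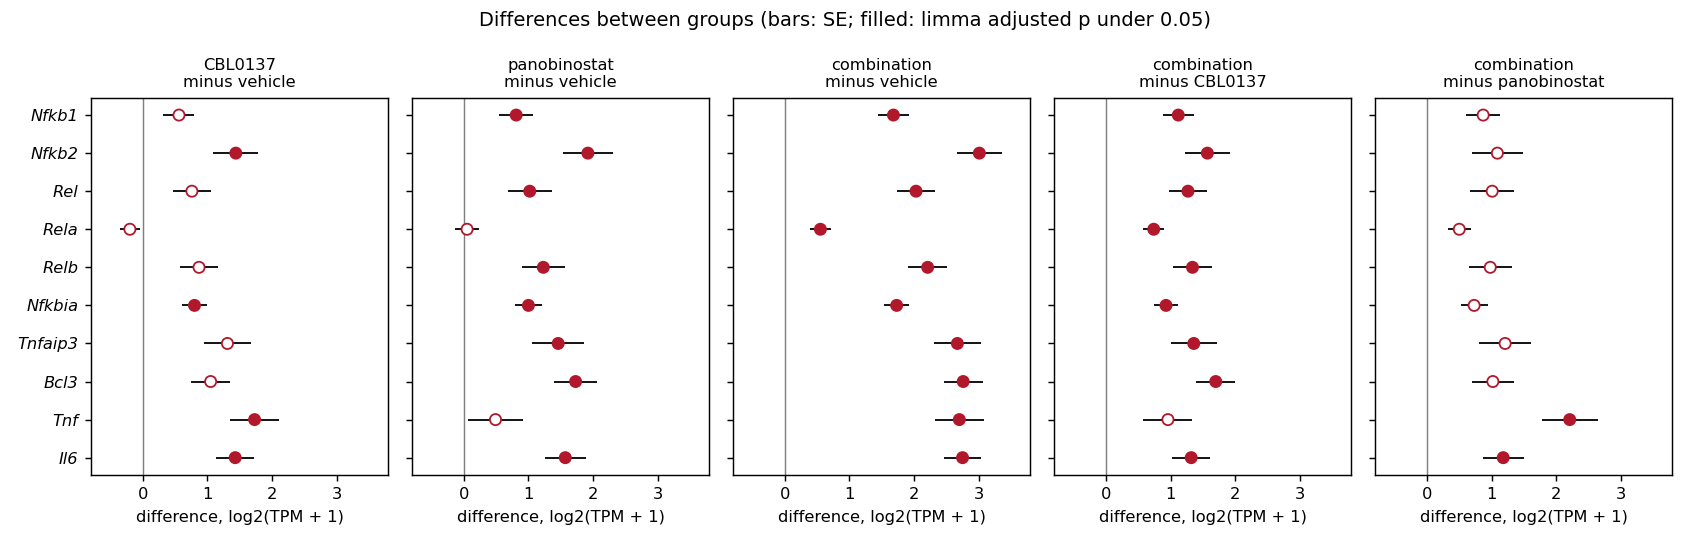
Differences between groups on the log2(TPM + 1) scale for the 10 NF-kB genes in 5 comparisons, with points at the limma estimate, bars of 1 SE on each side and filled points for limma adjusted p under 0.05. The combination minus vehicle differences run from 0.55 for Rela to 3.01 for Nfkb2, and against panobinostat the filled points are Tnf and Il6.

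Between the single drugs 0 of 10 members were called by limma, against 6.81% of all genes higher after CBL0137 and 12.1% lower (8.64 and 7.58% after quantile normalization). At an unadjusted p under 0.05 there were 5523 of the 15497 tested genes, among them 1 member, Tnf. It was also the 1 member whose CBL0137 tumours all exceeded the panobinostat tumours, as 22.2% of all genes did. Without CBL0137 replicate 3 the count was 4, as Nfkb2, Rela, Relb and Bcl3 were then called lower after CBL0137 than after panobinostat, along with 17.6% of all genes. The interaction, which asks whether the change after both drugs differs from the sum of the single changes, gave 0 calls by limma among the members and among all genes (0%). At an unadjusted p under 0.05 there were 1631 genes, among them 1 member, Rela, at 0.70 ± 0.23 (limma adjusted p = 0.377). The other 9 had estimates between -0.36 for Nfkb2 and 0.48 for Tnf.

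The members and the 4 pathway lists that follow were chosen with earlier results of these data known. Their shares therefore describe the lists and are no independent test of the pathway. The receptors and ligands that feed the pathway moved in the same direction as the members, on a list of 24 genes of which 22 were tested (Lta and Cd40lg were not). CBL0137 raised 12 (54.5%, against 4.99% of all genes), panobinostat 17 (77.3%, against 25.5%) and the combination 20 (90.9%, against 35.9%), and 0 fell. The 12 became 6, 4 and 1 without vehicle replicate 1, 2 and 3 and 1 without the 4 libraries that stood apart, with list medians of 1.02 to 1.36 against 1.22. With a pseudocount of 5 the count was 3, and with the replicate block 8. Their median log2 change after the combination was 2.90, where all genes had 0.08. Tnfrsf1a, the main receptor for TNF, stood at 4.50 ± 0.770 TPM in vehicle, 16.4 ± 7.61 TPM after CBL0137, 40.3 ± 9.55 TPM after panobinostat and 77.4 ± 10.9 TPM after the combination, a rise of 3.83 on the log2 scale (limma adjusted p = 6.64e-06). Tlr4, the receptor for bacterial lipopolysaccharide, rose by 3.64 after the combination (adjusted p = 6.03e-06) and Il1r1, the receptor for interleukin 1, by 3.45 (adjusted p = 8.73e-06). Tlr3, the endosomal receptor for double-stranded RNA, had means of 0.967, 7.66, 4.65 and 39.0 TPM in vehicle, CBL0137, panobinostat and combination tumours. Its change after the combination was 4.30 (limma adjusted p = 8.95e-06). The macrophage marker sums ran alongside these receptors, from 817 to 1010 TPM in vehicle to 6900 to 10400 TPM in the combination.

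Of 27 adaptors and kinases, CBL0137 raised 2, Myd88 and Ikbke (7.41%), and panobinostat raised 7 (25.9%) and lowered 2, shares of higher calls close to the 4.99 and 25.5% of all genes. The combination raised 18 (66.7%, against 35.9% of all genes) and lowered 5 (18.5%, against 30.1%), with a median of 0.59. After panobinostat the list's median was 0.25, and -0.02 after quantile normalization, where 5 rose and 4 fell. Myd88, the adaptor of Toll-like and interleukin 1 receptors, went from 3.69 ± 0.676 TPM in vehicle to 14.9 ± 6.46, 20.1 ± 2.68 and 66.4 ± 10.3 TPM, a change of 3.84 after the combination (limma adjusted p = 4.9e-06). Ikbke, a kinase related to the IkB kinases, rose by 3.36 after the combination (adjusted p = 2.2e-05), Irak2 by 2.73 (adjusted p = 1.27e-05) and Ripk1, a kinase on the TNF receptor, by 2.14 (adjusted p = 2.23e-05). Irak2 and Ripk1 were not called after CBL0137 (0.90 and 0.51). The 5 that fell after the combination, which were named after their values were seen, were Chuk (-0.35), a catalytic IkB kinase, Map3k7 (-0.34) and its partner Tab1 (-0.37), Traf6 (-0.46) and Btrc (-0.75). Btrc, the adaptor of the ubiquitin ligase that marks IkB for destruction, was at 11.9 to 13.9 TPM in vehicle and 7.05 to 7.92 TPM after the combination, without overlap (limma adjusted p = 0.00137).

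Of 15 other inhibitors, 2 rose after CBL0137 (Irak3 and Zfp36), 7 after panobinostat (46.7%, against 25.5% of all genes) and 12 after the combination (80%, against 35.9%), with a median of 1.16 for the last. The 2 after CBL0137 (13.3%, against 4.99%) became 0 without any 1 of the vehicle libraries or without the 4 libraries that stood apart, and 1 without CBL0137 replicate 1 or 3, either panobinostat library or combination replicate 1 or 3, and 4 without CBL0137 replicate 2. Quantile normalization left 0, 4 and 10 of these. Zfp36, which speeds the decay of Tnf transcripts, rose from 1.83 TPM in vehicle to 35.5 TPM after the combination (3.71, limma adjusted p = 1.11e-05). Nfkbiz, an atypical nuclear IkB protein, rose by 2.68 (adjusted p = 4.17e-05), Irak3, a brake on Toll-like receptor signalling, by 2.80 (adjusted p = 2.77e-05) and Zc3h12a, a ribonuclease that cuts Il6 transcripts, by 2.50 (adjusted p = 5.25e-05). Nfkbib, which encodes IkB beta and was named after its values were seen, fell where Nfkbia rose. It was already called lower after panobinostat alone (-0.48, limma adjusted p = 0.0241), while its CBL0137 difference of -0.38 was not called (adjusted p = 0.109). It was at 20.1 to 24.9 TPM in vehicle and 14.2 to 16.0 TPM after the combination (-0.53, limma adjusted p = 0.00502), and it kept the sign under median-ratio scaling (-0.61) and quantile normalization (-0.73). In vehicle its mean of 22.4 TPM was above the 17.7 TPM of Nfkbia, and in the combination it stood at 15.2 TPM against 60.9 TPM.

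Of 32 further target genes 29 were tested (Ccl20, Csf2 and Csf3 were not). CBL0137 raised 15 (51.7%), panobinostat 22 (75.9%) and the combination 25 (86.2%), against 4.99, 25.5 and 35.9% of all genes. The 15 became 6 without vehicle replicate 3, 7 without the 4 libraries that stood apart and 8 with a pseudocount of 5. Il23a was the 1 that fell after the combination (-0.80, limma adjusted p = 0.0261). The call of Il23a was lost without vehicle replicate 2 or 3, without combination replicate 1 or 2, and without the 4 libraries that stood apart (-0.81 to -0.47). The list's median after the combination was 3.23. Ccl2, a chemokine that draws monocytes, went from 7.72 ± 2.63 TPM in vehicle to 125 ± 57.2 TPM after CBL0137, 103 TPM after panobinostat and 419 TPM after the combination, a change of 5.60 (limma adjusted p = 3.91e-06). Irf1, a transcription factor of the interferon response, stood at 5.25 ± 0.412, 43.8 ± 28.8, 22.0 ± 0.269 and 174 ± 64.6 TPM in the same order. It changed by 4.74 after the combination (adjusted p = 9.81e-06). Bcl2a1b and Bcl2a1d, survival genes of the BCL2 family, rose by 3.68 and 4.14 after the combination, but they are near-identical copies between which reads may have been split, so their separate values are uncertain. The interaction gave 0 calls by limma in each of the 4 lists.

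The genes whose profile over the 11 libraries was most like that of a member were found by the root-mean-square difference between profiles, each set to 0 at its own vehicle mean on the log2(TPM + 1) scale, among 13666 genes. For Nfkb2 they were Atf3 (0.183), a stress-induced transcription factor, Ell2 (0.185), an elongation factor, and Nfkbie (0.193), the gene of IkB epsilon. Nfkbie had means of 1.02, 5.09, 5.27 and 13.4 TPM in vehicle, CBL0137, panobinostat and combination tumours. For Tnf they were Tapbpl (0.346), Psme2 (0.358) and H2-Q5 (0.395), which take part in antigen presentation by class I molecules. Psme2, an activator subunit of the proteasome, had means of 47.4, 156, 83.5 and 311 TPM in the same order, and its mean, like that of Tnf, was lower after panobinostat than after CBL0137. For Il6 they were Pmaip1 (0.305), a pro-apoptotic gene, Tifab (0.319) and Lasp1 (0.321). Among the members, the profile nearest to Nfkb2 was that of Tnfaip3 (0.304) and the farthest that of Rela (1.76). These values describe 11 libraries of shared groups and carry no test.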

How the data were processed

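Total RNA of 11 flash-frozen tumours was sequenced with stranded, ribosomal RNA-depleted libraries, 1 library per tumour. Groups follow the labels. Per the submitters' processing notes, the authors worked with STAR, SAMtools, RSEM and mm10; versions and annotation are not given in the sources used here. The authors deposited TPM for 24411 genes, and each library was checked to sum to 1000000. Depth is unknown, and 12856 to 14747 genes reached 1 TPM per library. A symbol had turned into a date in 27 rows, which were named by transcript identifier.

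Tested were the 15497 genes that reached 1 TPM in 2 or more libraries, and 8914 were left out. All 10 members passed, 7 of them through vehicle alone; Bcl3, Tnf and Il6 passed only with treated libraries. One limma 3.58.1 model (R 4.3.3; lmFit, contrasts.fit, eBayes with trend) fitted 4 group means to log2(TPM + 1), with 2-sided Benjamini-Hochberg adjustment over all tested genes and a threshold of 0.05. With 3 against 3, an exact permutation test cannot go below 0.1. The script was checked on simulated data with known changes in a small part of the genes, a simpler setting than these tumours. Python 3.11.15 and pandas 2.3.3 prepared tables.

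The members and lists were chosen with earlier results of these data known. Named were all members, from each of 4 pathway lists up to 4 genes with the lowest adjusted p against vehicle, 2 markers by mean TPM from each of 10 marker lists, and 3 genes of most similar profile for Nfkb2, Tnf and Il6. Alternatives changed the pseudocount (0.1 or 5), the filter (none or 5 TPM), the scaling (median-ratio or quantile) and the model (array weights, a replicate block, no trend, or a fit to only the groups compared), or left out each library in turn or 4 libraries together.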

Additional observations from a re-analysis of the deposited data

How the results depend on the processing

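All 10 members stayed called higher in the combination against vehicle under every alternative, except Rela after quantile normalization (9 called), and 9 or 10 were called against CBL0137 alone. For CBL0137 against vehicle, the 4 members called became 6 with a pseudocount of 0.1 or median-ratio scaling, 0 with a pseudocount of 5, 2 without a filter, after quantile normalization or with only the groups compared, 10 with array weights (9 higher, and Rela lower at -0.32), 0 with 4 libraries left out (an alternative added after seeing the data) and 0 to 5 with single libraries left out. For panobinostat against vehicle, 8 became 3 after quantile normalization and 4 to 8 with single libraries left out. For the combination against panobinostat, 2 became 1 with a pseudocount of 0.1 or without a filter, 7 with a pseudocount of 5, 9 after quantile normalization, 4 with array weights and 0 to 10 with single libraries left out. For CBL0137 against panobinostat, 0 became 1 after quantile normalization and 0 to 4 with single libraries left out. The cause was not tested. The replicate block left 1, 6, 10, 9 and 1 members called in the comparisons of CBL0137, panobinostat and the combination with vehicle and of the combination with CBL0137 and with panobinostat. Deviations of same-numbered libraries correlated between -0.26 and 0.19. Differently numbered libraries were not set beside them, so these values cannot show whether the numbers pair the mice. The labels do not say what the numbers mark.

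Over all genes, 949 calls for CBL0137 against vehicle became 547 (pseudocount 5), 521 (block), 4692 (array weights), 381 (4 left out) and 324 to 1333 (single libraries left out). For the combination against panobinostat 1634 became 3327 (quantile), 345 (block), 523 (only the groups compared), 890 (4 left out) and 362 to 3366. For CBL0137 against panobinostat 2935 became 1249 (block), 4594 (array weights), 8 (only the groups compared) and 0 to 4022. The interaction went from 0 to 11 with array weights, 1 with 4 left out and 0 to 44.

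Signs that turned belonged to differences that were not called. Against vehicle, panobinostat gave Rela -0.05 (median-ratio) and -0.28 (quantile), and Tnf -0.27 (quantile) and -0.01 (4 left out). CBL0137 minus panobinostat under quantile normalization gave Rel 0.29, Rela 0.02, Relb 0.13, Tnfaip3 0.34 and Il6 0.39. Interaction estimates turned to -0.03 for Relb (pseudocount 0.1). With a pseudocount of 5 they were 0.08 (Nfkb2), 0.19 (Tnfaip3), 0.27 (Bcl3) and 0.18 (Il6), and after quantile normalization 0.18, 0.48, 0.41 and 0.13. The block gave 0.02 (Tnfaip3) and 0.06 (Bcl3), and array weights 0.09 (Nfkbia), 0.12 (Tnfaip3) and 0.03 (Il6). With 4 libraries left out they were 0.35 (Nfkb2), 0.24 (Nfkbia), 0.36 (Tnfaip3), 0.15 (Bcl3) and 0.60 (Il6). With single libraries left out, interaction estimates ranged from -0.27 to 0.27 (Bcl3), -0.56 to 0.05 (Il6), -0.70 to 0.08 (Nfkb2), -0.28 to 0.17 (Nfkbia), -0.16 to 0.50 (Relb) and -0.47 to 0.34 (Tnfaip3). CBL0137 minus panobinostat then ranged from -0.44 to 0.16 (Il6), -0.43 to 0.01 (Nfkbia) and -0.59 to 0.23 (Tnfaip3).

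TPM give no depth, so no detection limit can be set for Tnf, Il6 or Bcl3 below 1 TPM in vehicle. Groups of 2 or 3 mice limit every comparison. A fit with 1 panobinostat library takes its spread from the other groups. Transcript levels say nothing of NF-kB protein or its location.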
